A study of Mus musculus with 58 samples.

Results

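Xist-mediated silencing of X-linked genes was compared on day 6 of neural precursor cell (NPC) differentiation between cells with a mutated SPEN SPOC domain and cells depleted of PCGF3 and PCGF5. The comparison used 4 of the 58 libraries of the series, chosen by their labels: SPOC clones D9 and H1 on NPC day 6, and replicates 1 and 2 of the FKBP12-PCGF35 line treated with dTAG-13 on NPC day 6. The series follows silencing by allele-resolved sequencing of chromatin-associated RNA (ChrRNA-seq) in lines with these losses, alone and together, before and during induction of Xist. The question addressed was which X-linked genes stay more active without the SPOC domain and which stay more active without PCGF3/5.

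All 4 libraries came from female iXist-ChrX-Dom mouse embryonic stem cells (mESCs), hybrids of 129S and Cast in which the endogenous Xist promoter of the 129S allele is replaced by a TetOn promoter, so that doxycycline (1 µg/mL) silences the 129S X chromosome (Dom) and leaves the Cast X chromosome active. In the SPOC group the SPOC domain of SPEN carries point mutations, and each clone is a separately derived line. In the PCGF35_dTAG group both Pcgf3 and Pcgf5 carry an FKBP12 degron in 1 line, and dTAG-13 was added 12 h before doxycycline. Each arm has its own reference on day 6: WT cells without either change (2 libraries) for SPOC, and the untreated degron line (PCGF35_ctrl, 2 libraries) for PCGF35_dTAG. The replicates of the degron line are described as replicate experiments on 1 line, with treated and untreated cells cultured side by side. They therefore do not show the spread between degron lines. The allelic p-values per gene rest on a spread estimated over all 58 libraries, in which some groups hold separate clones and others replicate experiments. The arms also differ in parent line and culture, and this difference cannot be told apart from that of the losses in a direct comparison of these 4 libraries. Comparisons relative to each arm's own reference and to its own day 0 are given after it. Ratios of clones with the SPOC mutation in the degron line are given as well.

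Xist RNA carries separate modules that recruit separate repressors. Its A-repeat binds SPEN, whose SPOC domain engages the NCoR/SMRT corepressors and histone deacetylase HDAC3. Its B/C-repeat region (PID region) recruits, through hnRNPK, the PCGF3/5 forms of Polycomb repressive complex PRC1, which ubiquitinate histone H2A and lead to H3K27 methylation by PRC2.

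For each gene the measure was the allelic ratio, Dom fragments over the sum of Dom and Cast fragments: 0.5 means equal output from both X chromosomes and 0 means that the 129S copy is silent. It was analyzed for the X-linked genes that have a deposited ratio, all on the centromeric side of Xist, here called the X-linked genes. The 4 libraries held 11265525 to 13217426 assigned fragments each (at least 2292261 in each of the 58), of which 45.9% to 47.6% were assigned to an allele. In bulk RNA a ratio between 0 and 0.5 cannot tell fewer cells that silence a gene from less silencing in every cell.

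The labelled cell type was borne out in part. Nes, encoding the neural stem cell filament nestin, was at 7.97 and 23.7 CPM (counts scaled to library size) in the SPOC libraries and 24.9 and 58.4 CPM in the PCGF35_dTAG libraries, below the 64.8 to 270.0 CPM of the WT and untreated libraries, and no fragment was counted for Sox1 in any of these 8. Nanog, a pluripotency factor, was still at 30.9 to 35.1 CPM in SPOC and 16.7 to 22.3 CPM in PCGF35_dTAG. On day 0 Nes was at 14.1 to 18.9 CPM in SPOC and 6.24 to 19.4 CPM in PCGF35_dTAG. Esrrb, another pluripotency factor, was at 401 to 455 CPM on day 0 and 368 to 534 CPM on day 6 in SPOC. In PCGF35_dTAG it was at 483 to 529 and 251 to 325 CPM. Nanog and Zfp42, a naive pluripotency marker, were lower on day 6 than on day 0 in both arms. From marker genes the paper reports tentative evidence that SPOC-mutated cells differentiate defectively. The summed level of 17 mesoderm and endoderm markers was 36.7 and 40.8 CPM in SPOC and 107 and 267 CPM in PCGF35_dTAG, with 3 of the 17 at 0 in both SPOC libraries and 1 at 0 in both PCGF35_dTAG libraries. The summed levels of the other marker lists were 1105 and 1379 against 754 and 837 CPM for 26 neural precursor markers (with Ncam1, a cell adhesion molecule, at 570.3 and 866 against 388 and 350.3 CPM; over the 15 members tested the median log2 fold was -0.08), 964 and 1276 against 579 and 728 CPM for 15 naive pluripotency markers, 615 and 933 against 1137 and 1587 CPM for 14 markers of core and formative pluripotency, and 461 and 613 against 477 and 544 CPM for 16 fibroblast (feeder) markers. The last sum was carried by Fn1, fibronectin, at 413 and 575 against 457 and 366 CPM (scaled over the 8 day 6 libraries), while over the 13 members tested the median log2 fold was -2.05, with 3 called lower in SPOC (Pdgfra, Acta2 and Tagln) and 0 higher. The part of these differences in the allelic results was not tested. Spen itself, whose domain is mutated, was read at 509 and 511 CPM in SPOC, against 165 and 159 CPM in PCGF35_dTAG and 121 to 156 CPM in the WT and untreated libraries. It was already higher in SPOC on day 0, at 243 to 265 CPM against 95.5 to 116 CPM in PCGF35_dTAG. Pcgf3 was at 83.2 and 77.3 CPM in SPOC and 76.6 and 82.9 CPM in PCGF35_dTAG; the degron removes protein, so RNA does not check that depletion.

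Over all X-linked genes, silencing was less complete after SPOC mutation than after PCGF3/5 depletion. The median allelic ratio was 0.331 in D9 and 0.338 in H1, and 0.225 and 0.228 in the PCGF35_dTAG replicates. The WT libraries were at 0.0833 and 0.0886, and the untreated libraries at 0.0649 and 0.0833. Hence both losses left the median above every reference library, and the SPOC libraries lay above the PCGF35_dTAG libraries on that day. The same order held on day 1 in mESCs (0.433 to 0.446 in 3 SPOC clones, 0.399 and 0.417 in PCGF35_dTAG) and on NPC day 3 (0.405 and 0.411 against 0.307 and 0.333). Averaged over days 1, 3 and 6 the difference was 0.0766, with an exact two-sided permutation p of 0.00278, which is the smallest p that the 360 arrangements within days allow. The days resample the same clones and the same degron line, so these libraries are not independent; when whole clones and replicate numbers were exchanged over all days at once, an alternative added after seeing the data, the exact permutation p was 0.1, the smallest that its 10 arrangements allow. Day 6 by itself, with 2 libraries against 2, cannot go below an exact permutation p of 0.333.

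Gene by gene, the ratio was higher in SPOC for 99 genes (40.2%), higher in PCGF35_dTAG for 9 genes (3.66%) and not called for 138, by edgeR's quasi-likelihood test on allele counts with Benjamini-Hochberg adjustment over these genes and an adjusted p under 0.05. Without regard to the test, both SPOC libraries lay above both PCGF35_dTAG libraries for 151 genes (61.4%) and below both for 26 genes (10.6%). The median difference of the mean ratios was 0.0922, and the median difference on the log2 odds scale was 0.68. The log2 odds is the log2 of Dom over Cast, so a difference of 1 is a doubling of Dom relative to Cast. When each library was centered on its own median log odds, which removes the overall shift and ranks genes against each other, 26 genes (10.6%) were relatively higher in SPOC and 37 genes (15.0%) relatively higher in PCGF35_dTAG. The split of calls thus depends on whether the overall difference is counted, and both are used here. The 99 genes had a median ratio of 0.424 in SPOC and 0.234 in PCGF35_dTAG, and the 9 genes had 0.0484 and 0.131. Leaving out clone H1 left 2 of the genes lower in SPOC, so the short list of genes that stay more active without PCGF3/5 rests in part on that clone.

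**Figure D1:**
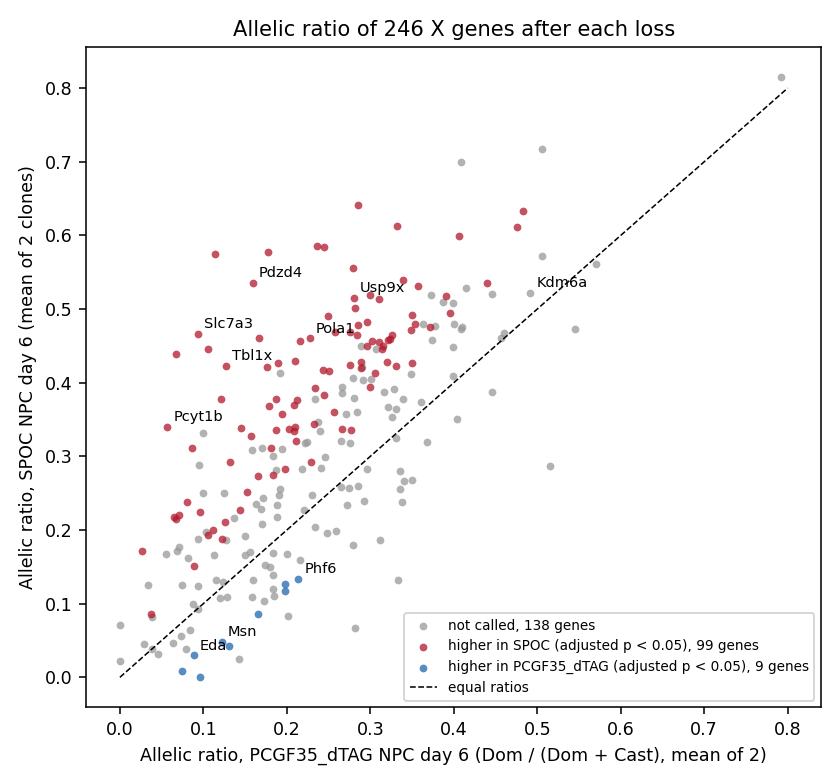
Mean allelic ratio on NPC day 6 in PCGF35_dTAG (x axis) and SPOC (y axis) for the X-linked genes; colors mark genes with an adjusted p under 0.05 in either direction and the dashed line marks equal ratios. Most genes lie above the line, Pdzd4 lies at 0.160 and 0.535, and the 9 genes called below the line have mean SPOC ratios of 0.134 or less.

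The gene with the widest gap was Pdzd4, which encodes a PDZ domain protein (chromosome X, 73793356 to 73824969, minus strand, mm10). Its ratio was 0.531 and 0.539 in SPOC, close to its day 0 mean of 0.564, and 0.144 and 0.175 in PCGF35_dTAG. WT libraries were at 0.0858 and 0.106 and untreated libraries at 0.0730 and 0.0858, so PCGF35_dTAG lay above all 4 references and far below SPOC, in which both X chromosomes gave similar output. The difference was 2.60 ± 0.18 (log2 odds ± SE; edgeR adjusted p = 4.4e-19), on 853 to 1548 allelic fragments per library.

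Some of the genes with the widest gaps encode transporters and membrane-linked enzymes, whose share over all X-linked genes was not counted. Slc7a3, a cationic amino acid transporter (X, 101079220 to 101085352), was at 0.446 and 0.486 in SPOC and 0.0926 and 0.0940 in PCGF35_dTAG, a difference of 3.07 ± 0.28 (edgeR adjusted p = 3.5e-14). Pcyt1b, an enzyme of phosphatidylcholine synthesis (X, 93654862 to 93749948), was at 0.325 and 0.354 against 0.0609 and 0.0529. The groups did not overlap for either gene, and WT was at 0.0661 and 0.0315 for Slc7a3 and 0.00498 and 0.0181 for Pcyt1b. Slc6a8, the creatine transporter, was at 0.639 and 0.587 against 0.319 and 0.344, on as few as 47 fragments. Zdhhc9, a palmitoyltransferase, was at 0.613 and 0.497 against 0.339 and 0.219. For these PCGF35_dTAG lay above all 4 references as well, although for Zdhhc9 its lower replicate was close to WT (0.194 and 0.163, with 0.119 and 0.125 in untreated cells).

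Tbl1x encodes a subunit of the NCoR/SMRT-HDAC3 complex, the partner of the SPOC domain (X, 77511226 to 77660265). Its ratio was 0.419 and 0.426 in SPOC and 0.129 and 0.127 in PCGF35_dTAG, a difference of 2.32 ± 0.18 (edgeR adjusted p = 1.1e-17) on at least 1624 fragments per library. Rps4x, a ribosomal protein of the small subunit that lies 1.27 Mb from Xist, was at 0.420 and 0.494 against 0.225 and 0.206. Chic1, whose start lies 0.104 Mb from Xist, was at 0.417 and 0.426 against 0.186 and 0.165. Both lie within 3 Mb of Xist and kept more Dom output without SPOC than without PCGF3/5.

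Of the remaining genes named for size, Itgb1bp2 (melusin, a binding partner of integrins) was at 0.433 and 0.458 against 0.121 and 0.0899. Mcf2, a guanine nucleotide exchange factor, was at 0.442 and 0.411 against 0.185 and 0.194. Gm14634 was at 0.517 and 0.463 against 0.230 and 0.269. In all of these the groups stood apart. F8, coagulation factor VIII, was at 0.688 and 0.594 against 0.263 and 0.308, but its ratio already differed before Xist induction, with day 0 means of 0.808 in SPOC and 0.587 in PCGF35_dTAG, and relative to day 0 its difference was 0.62 ± 0.48 (edgeR adjusted p = 0.32).

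Of the 6 genes named here with more Dom output without PCGF3/5, Eda was the one that stayed past the threshold under every alternative processing tried. Eda encodes ectodysplasin, a signaling ligand of the TNF family (X, 99975605 to 100400760, 3.48 Mb from Xist). Its ratio was 0.0385 and 0.0208 in SPOC and 0.0906 and 0.0876 in PCGF35_dTAG, with WT at 0.0179 and 0.0158. Eda thus stayed close to its WT level in SPOC and above it in PCGF35_dTAG, a difference of -1.67 ± 0.22 (edgeR adjusted p = 3.6e-09) on at least 1439 fragments per library. In SPOC-mutated clones of the degron line without dTAG-13 it was at 0.113 and 0.121 that day, above both PCGF35_dTAG libraries.

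A cytoskeletal gene of the same stretch of the chromosome followed. Msn, moesin, which links actin to the membrane (X, 96096044 to 96168553), was at 0.0625 and 0.0343 in SPOC and 0.126 and 0.119 in PCGF35_dTAG. The groups did not overlap, and the difference was -1.39 ± 0.40 (edgeR adjusted p = 0.0034). Without clone H1 the adjusted p of edgeR became 0.071.

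Chromatin and ribosome factors made up most of the rest. Hdac8, a histone deacetylase 0.955 Mb from Xist (X, 102284639 to 102505148), was at 0.141 and 0.112 in SPOC and 0.202 and 0.193 in PCGF35_dTAG. Phf6, a PHD finger protein 50.5 Mb from Xist, was at 0.127 and 0.141 against 0.212 and 0.215. Las1l, a factor of ribosome biogenesis, was at 0.138 and 0.0959 against 0.196 and 0.199. These groups did not overlap, but the gaps were small: all 3 lay below 0.22 in every library, and each lost its call under at least 1 alternative. For Phf6 the untreated libraries, at 0.0581 and 0.0546, lay above WT, at 0.0301 and 0.0275. For Las1l untreated libraries were at 0.0724 and 0.0426 and WT at 0.0153 and 0.0522. Relative to these references neither gene passed. The difference between the losses in log2 odds was 0.19 for Phf6 and 0.10 for Las1l, toward SPOC (edgeR adjusted p of 0.91 and 0.99). In mean ratios it was -0.0525 and -0.0566, toward PCGF35_dTAG. Zc3h12b, at 0.0741 and 0.0116 against 0.0890 and 0.172, overlaps the gene 1700010D01Rik on the opposite strand. Tmem28, also called but too thinly covered for the rule, was named after its values were seen: 3 of its 4 libraries had a ratio of 0, and the call rests on a ratio of 0.192 in PCGF35_dTAG replicate 1. Its 0 Dom fragments of 33 and 24 in SPOC allow ratios of up to 0.0909 and 0.125, and 0 of 21 in PCGF35_dTAG replicate 2 allows up to 0.143 (fragments carry no molecular identifiers, so these limits cover counting error only).

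**Figure D2:**
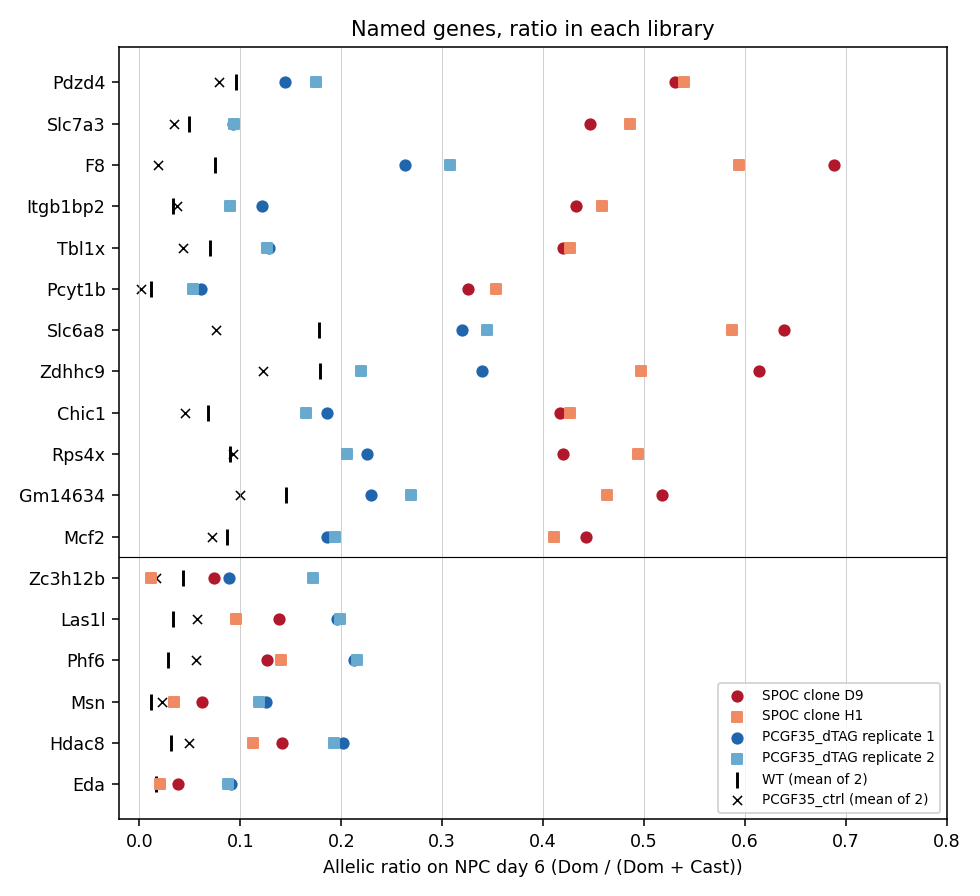
Allelic ratio on NPC day 6 (x axis) of the 12 named genes higher in SPOC (top) and 6 named genes higher in PCGF35_dTAG (bottom), with a point for each SPOC and PCGF35_dTAG library and marks for the means of WT and of untreated cells. Slc7a3 has PCGF35_dTAG points at 0.0926 and 0.0940 beside a WT mean of 0.0488, and Eda has SPOC points at 0.0385 and 0.0208 beside a WT mean of 0.0168.

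To show what lies at the start of genes that differed in opposite directions, promoters are given for Pdzd4 and Pcyt1b, higher in SPOC, and for Eda and Hdac8, higher in PCGF35_dTAG. Each runs 5′ to 3′ from 250 bases before to 50 bases after the RefSeq start on build GRCm38.p6, at X:73824920-73825219 (minus strand), X:93654613-93654912 (plus), X:99975356-99975655 (plus) and X:102505109-102505408 (minus), with capitals marking CG dinucleotides.
Pdzd4: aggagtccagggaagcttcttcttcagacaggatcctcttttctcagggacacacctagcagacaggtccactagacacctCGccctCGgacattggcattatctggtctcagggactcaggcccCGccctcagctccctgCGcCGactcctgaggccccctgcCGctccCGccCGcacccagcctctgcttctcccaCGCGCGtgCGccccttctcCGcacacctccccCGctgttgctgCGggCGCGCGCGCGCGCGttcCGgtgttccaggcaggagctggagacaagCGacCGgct
Pcyt1b: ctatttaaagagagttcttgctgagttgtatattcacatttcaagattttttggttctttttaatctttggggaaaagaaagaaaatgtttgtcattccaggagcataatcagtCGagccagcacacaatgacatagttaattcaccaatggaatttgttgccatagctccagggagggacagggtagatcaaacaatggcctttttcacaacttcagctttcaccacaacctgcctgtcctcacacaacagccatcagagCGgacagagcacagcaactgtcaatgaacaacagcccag
Eda: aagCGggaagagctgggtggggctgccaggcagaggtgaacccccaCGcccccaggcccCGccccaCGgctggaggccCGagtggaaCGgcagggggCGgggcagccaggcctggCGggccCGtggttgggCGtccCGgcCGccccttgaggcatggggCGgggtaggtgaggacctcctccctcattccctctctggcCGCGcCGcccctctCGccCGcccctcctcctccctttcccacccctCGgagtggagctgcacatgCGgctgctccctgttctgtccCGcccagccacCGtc
Hdac8: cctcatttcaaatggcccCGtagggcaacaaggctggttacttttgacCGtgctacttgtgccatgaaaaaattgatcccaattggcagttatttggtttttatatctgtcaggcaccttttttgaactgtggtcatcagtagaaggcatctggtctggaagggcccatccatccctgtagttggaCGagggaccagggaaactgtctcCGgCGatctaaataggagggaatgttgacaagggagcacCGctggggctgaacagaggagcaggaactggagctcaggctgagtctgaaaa
These hold 25, 2, 22 and 6 CG dinucleotides, so that CG-rich and CG-poor starts occurred in both directions. A RefSeq promoter was matched within 1000 bases for 192 genes, with a median of 18 CG dinucleotides (range 0 to 57). The median was 18.5 for the 82 matched genes called higher in SPOC and 20.5 for the 6 matched genes called lower. The letters AANATGGCG, part of the motif of YY1, stood on either strand in 7 of the 82 and in 14 of all 192 promoters (7.29%), and TATAAA in 6 of the 82 and also in 14 of all 192.

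The ratios moved with the Dom allele. Among the 99 genes higher in SPOC, Dom output in CPM was higher in both SPOC libraries than in both PCGF35_dTAG libraries for 94, while Cast output was higher for 28, lower for 25 and overlapped for 46. Over all X-linked genes Dom output was higher for 144, lower for 36 and overlapped for 66, and Cast output was higher for 54, lower for 63 and overlapped for 129. For the 99 genes the median log2 fold of SPOC over PCGF35_dTAG was 1.08 for Dom and -0.03 for Cast. Over all X-linked genes it was 0.53 for Dom and -0.08 for Cast. Among the 9 genes lower in SPOC, Dom output was lower in SPOC for 8. Summed over all X-linked genes, Dom output was 3206 and 3392 CPM in SPOC, 1693 and 1631 CPM in PCGF35_dTAG and 505 to 714 CPM in the reference libraries. Cast output was 5409 and 5366 CPM in SPOC and 5321 and 4918 CPM in PCGF35_dTAG, against 4986 to 5521 CPM in the references, so the 4 libraries differed far less in Cast than in Dom output.

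Relative to each arm's own reference on day 6, the difference between the losses passed the test for 18 genes with a larger effect of SPOC mutation (7.32%) and 2 genes with a larger effect of PCGF3/5 depletion (0.813%), by the interaction in the same edgeR fit. Pdzd4 had the smallest adjusted p, with an interaction of 2.29 ± 0.32 (edgeR adjusted p = 1.9e-07). Pola1, the catalytic subunit of DNA polymerase alpha, was next, with ratios of 0.438 and 0.482 in SPOC, 0.225 and 0.229 in PCGF35_dTAG and 0.0604 to 0.0622 in the 4 reference libraries. Its interaction was 1.52 ± 0.23 (edgeR adjusted p = 1e-06) on at least 3230 fragments in each of the 8 libraries. Tbl1x, Rps4x and Slc7a3 passed as well, and Eda was 1 of the 2 genes in the other direction, with an interaction of -1.39 ± 0.42. That direction rested on single libraries: without WT replicate 1, PCGF35_dTAG replicate 1 or clone H1, each left out in turn, 0 genes passed, and without WT replicate 2, or without either of the untreated libraries, 1 gene did.

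Relative to each arm's own day 0, the loss of Dom output was smaller in SPOC for 74 genes (30.1%) and smaller in PCGF35_dTAG for 5 genes (2.03%). Of the 12 named genes higher in SPOC, 11 passed, all but F8. Of the 6 named genes lower in SPOC, Eda and Msn passed. These comparisons share the day 6 libraries with the direct one and are not independent of it.

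Expressed as the share of the day 0 ratio that was kept on day 6, the median gene kept 64.9% in SPOC, 45.9% in PCGF35_dTAG and 17.5% in WT, the last set against day 0 of the untreated line. More than 75% was kept by 95 genes in SPOC (89 in D9 and 103 in H1) and by 19 genes in PCGF35_dTAG (19 and 22 in the replicates). Both losses spared 18 genes, SPOC mutation only 77, and PCGF3/5 depletion only 1, Nudt11, which had as few as 5 fragments in a library. Hence 18 of the 19 genes past this mark without PCGF3/5 were also past it without SPOC. Of these 18, 7 also kept over 50% in WT. They include Kdm6a, a histone demethylase known to escape X inactivation, at 0.514 and 0.530 in SPOC, 0.485 and 0.498 in PCGF35_dTAG and 0.387 and 0.393 in WT, and Rpl10, a ribosomal protein, at 0.609 and 0.658 against 0.479 and 0.487. At the other end, Slc7a3, Tbl1x, Itgb1bp2 and Xpnpep2 were among the 5 genes that kept over 75% in SPOC and under 25% in PCGF35_dTAG, although Xpnpep2 (an aminopeptidase, at least 6 fragments) is thinly covered. A further 20 genes kept under 25% with either loss.

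The difference was already present on NPC day 3, in separate libraries of the same lines. There 89 genes (36.2%) were higher in SPOC and 3 (1.22%) higher in PCGF35_dTAG; without PCGF35_dTAG replicate 1 of day 3 the first count was 51. Of the 99 genes higher in SPOC on day 6, 76 passed in the same direction on day 3, and all 12 named ones did. Pdzd4 was at 0.540 and 0.552 on day 3 in SPOC and 0.240 and 0.245 in PCGF35_dTAG. Of the 6 named genes with the opposite direction, Eda did, at 0.0711 and 0.0700 against 0.178 and 0.172. The others stood close together on day 3: Phf6 was at 0.247 and 0.270 in SPOC and 0.253 and 0.269 in PCGF35_dTAG, Msn at 0.191 in both clones against 0.195 and 0.217, and Hdac8 at 0.271 and 0.289 against 0.259 and 0.281. For these genes the gap of day 6 was not seen on day 3.

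The sets defined after centering followed separate courses. The 26 genes relatively higher in SPOC had median ratios of 0.481 to 0.489 in the 3 SPOC clones on day 1 and 0.492 in both clones on day 3, and 0.331 to 0.367 and 0.259 to 0.260 in PCGF35_dTAG. On day 6 they were at 0.444 and 0.483 in SPOC. In SPOC this set was thus close to its day 0 medians (0.508 to 0.534) on days 1 and 3, while in PCGF35_dTAG it was lower on each later day. The 37 genes relatively higher in PCGF35_dTAG had medians of 0.362 to 0.382 on day 1 and 0.282 and 0.326 on day 3 in SPOC, against 0.410 and 0.412 and 0.307 and 0.343 in PCGF35_dTAG. Their ratios fell with time under either loss.

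**Figure D3:**
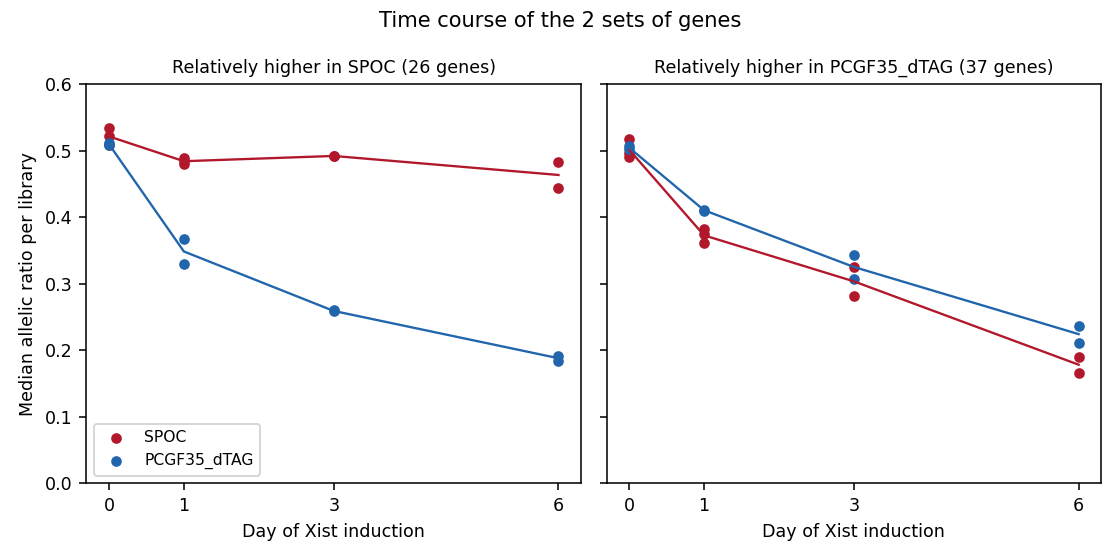
Median allelic ratio per library (points; lines join the means) over days 0, 1, 3 and 6 of Xist induction for 26 genes relatively higher in SPOC and 37 genes relatively higher in PCGF35_dTAG after centering. The sets were chosen on their day 6 values, so that day is a description; in the left panel the SPOC points stay between 0.444 and 0.534 while PCGF35_dTAG points fall from 0.509 and 0.511 to 0.185 and 0.192.

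A comparison in other lines used no library of the first. PCGF35_SPOC_ctrl clones F10 and F6 carry the SPOC mutation in the degron line without dTAG-13, so PCGF3/5 is present. DelPID cells lack the Xist B/C repeat and so the PID region, with SPEN intact. The paper reads an upward skew of NPC ratios in a clone of the degron line with the SPOC mutation as selection for cells without the Cast X. Summed Cast output on days 0, 3 and 6 was 4741, 3687 and 4037 CPM in F10 and 5288, 5037 and 4972 CPM in F6. With dTAG-13 on day 6 it was 2646 CPM in F10, at a median ratio of 0.579, and 4977 CPM in F6, at 0.5. Lower Cast output raises the ratio by itself, and its part in the F10 values was not tested. On NPC day 6, 48 genes (19.5%) had a higher ratio in PCGF35_SPOC_ctrl and 10 genes (4.07%) in DelPID. Of the 99 genes higher in SPOC than in PCGF35_dTAG, 43 (43.4%) passed in the matching direction and 0 in the other. Of the 26 that were relatively higher after centering, 23 (88.5%) passed. Pdzd4 was at 0.577 and 0.552 in PCGF35_SPOC_ctrl and 0.198 and 0.228 in DelPID, a difference of 2.19 ± 0.21 (edgeR adjusted p = 3.7e-13). Of the 12 named genes 10 passed; F8 and Gm14634 did not. Of the 9 genes lower in SPOC, 3 passed in the matching direction, Msn and Zc3h12b among them. Msn was at 0.138 and 0.226 in PCGF35_SPOC_ctrl and 0.141 and 0.382 in DelPID, and Zc3h12b at 0.0917 and 0.185 against 0.100 and 0.423, so the groups overlapped for both although they passed (edgeR adjusted p of 0.00064 and 0.0029). Eda was at 0.113 and 0.121 against 0.118 and 0.165, and did not pass (edgeR adjusted p = 0.1). Over the 99 genes the medians of F10 and F6 were 0.397 and 0.447. PCGF35_dTAG, the treated form of their parent line, was at 0.230 and 0.229. Over the 9 genes these clones were at 0.113 and 0.196, against 0.166 and 0.164 in PCGF35_dTAG, so the groups overlapped. The sets were chosen with these PCGF35_dTAG values, and this comparison was not tested.

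Over all X-linked genes the differences in log2 odds of these separate comparisons had a Spearman correlation of 0.543, and 0.670 over the 171 genes with at least 40 allelic fragments in each of the 4 libraries, given as a description since genes of the same libraries share depth and allele bias. The count of genes higher in DelPID hung on single libraries: it was 29 without clone F6, 2 without F10 and 1 without DelPID replicate 2. DelPID replicate 1 held 2292261 fragments, the fewest of the series, and without it 40 genes were higher in PCGF35_SPOC_ctrl and 12 in DelPID.

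**Figure D4:**
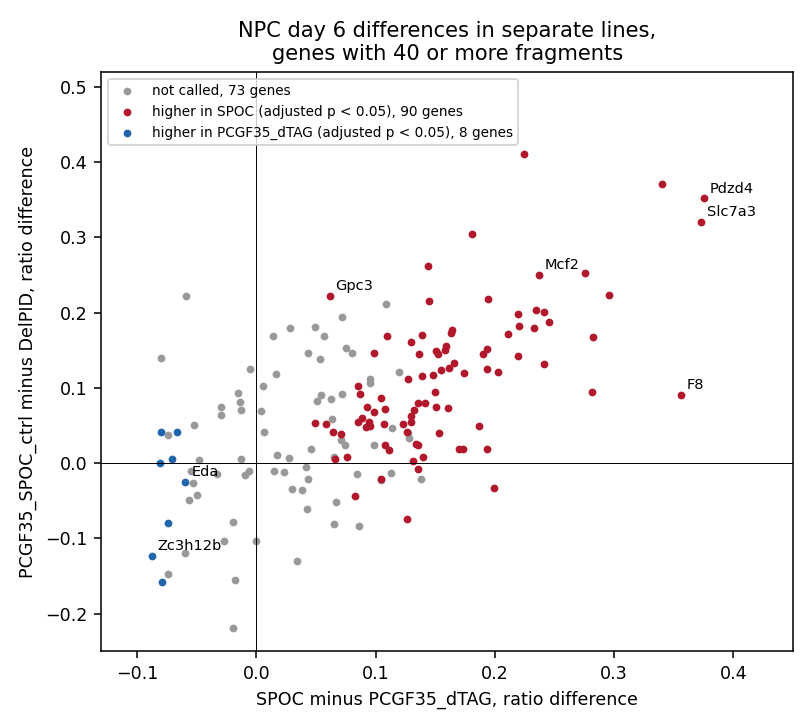
Difference in mean allelic ratio on NPC day 6 for SPOC minus PCGF35_dTAG (x axis) and PCGF35_SPOC_ctrl minus DelPID (y axis), for 171 genes with at least 40 allelic fragments in each of the 4 libraries of the x axis; colors give the calls of the x axis comparison. Pdzd4 and Slc7a3 lie at the upper right, Zc3h12b at the lower left (its libraries overlap on the y axis), and F8 lies to the right with little difference on the y axis.

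Position along the chromosome was described in windows that were chosen after the values were seen and carry no test. Within 3 Mb of Xist, 14 of 23 genes were higher in SPOC and 1 (Hdac8) was lower, with a median ratio difference of 0.144. From 3 to 9 Mb the order turned: of 21 genes, 7 were higher in PCGF35_dTAG (Eda, Tmem28, Msn, Las1l and Zc3h12b among them) and 1 was higher in SPOC. The median ratios in that window were 0.0714 in SPOC and 0.131 in PCGF35_dTAG, and the median difference was -0.0483. The exception, named after its values were seen, was Eda2r, a receptor for a form of ectodysplasin, at 0.375 and 0.412 in SPOC and 0.299 in both PCGF35_dTAG libraries. Beyond it, from 9 to 30 Mb, 32 of 55 genes were higher in SPOC and 0 lower, with a median difference of 0.128. From 30 to 60 Mb the difference was smaller (median 0.0449, 19 higher and 1 lower of 61), and from 60 to 98 Mb it was 0.110 (33 higher and 0 lower of 86). In the comparison of PCGF35_SPOC_ctrl and DelPID the median difference in the 3 to 9 Mb window was -0.0099, against 0.125 within 3 Mb and 0.0947 from 9 to 30 Mb. Depth was lower in the window, with a median of 38 fragments in the thinnest of the 4 libraries against 97.5 over all genes. Distance by itself had no monotonic relation to the difference across genes (Spearman 0.0005 over all X-linked genes, a description).

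**Figure D5:**
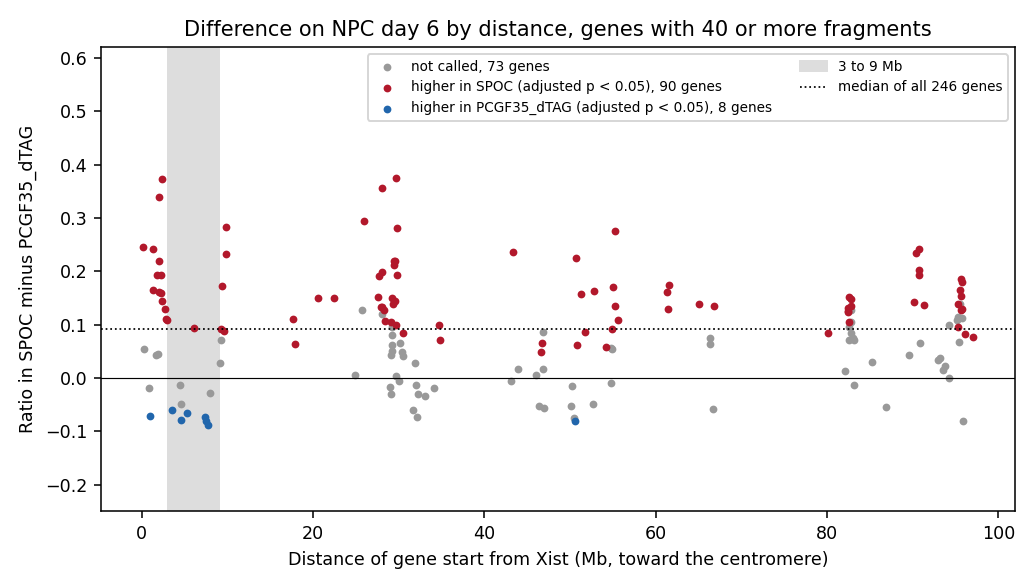
Difference in mean allelic ratio, SPOC minus PCGF35_dTAG on NPC day 6 (y axis), by the distance of each gene's start from Xist in Mb (x axis), for the 171 genes with at least 40 allelic fragments in each library. The shaded stretch from 3 to 9 Mb holds 4 of the 6 named genes below 0, and the dotted line marks the median of all X-linked genes, 0.0922.

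Genes were also described by function, with counts to be read against the 40.2% higher and 3.66% lower in SPOC over all X-linked genes. Chromatin regulators on the X stayed more active without SPOC for 10 of 19 measured, and without PCGF3/5 for 2 (Phf6 and Hdac8), with a median ratio of 0.416 in SPOC and 0.284 in PCGF35_dTAG and a median of the differences of 0.134 (0.0922 over all X-linked genes). Relative to each arm's own reference neither Phf6 nor Hdac8 passed. Hcfc1, a transcriptional coregulator, was at 0.396 and 0.463 against 0.197 and 0.222, and Ogt, the O-GlcNAc transferase, at 0.472 and 0.485 against 0.285 in both replicates. Among 25 genes of RNA processing and translation, 13 were higher in SPOC and 1 lower (Las1l), with a median difference of 0.103. Nono, a nuclear RNA-binding protein of paraspeckles, was at 0.530 and 0.509 against 0.294 and 0.306. Snx12, listed there, is a sorting nexin.

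Of 31 genes of pluripotency and signaling, 17 were higher in SPOC and 2 lower (Eda among them), with a median difference of 0.0946. Of 14 genes of the ubiquitin pathway, 7 were higher and 1 lower, the latter being the ribosome factor Las1l, which that list also holds, with a median difference of 0.122. Usp9x, a deubiquitinase, was at 0.505 and 0.524 against 0.275 and 0.285, on at least 4375 fragments. Of 12 genes near Xist, 7 were higher and 1 lower, with a median difference of 0.162. The median differences of genes of metabolism and mitochondria (0.0565; 10 higher and 0 lower of 33) and of neural genes (0.0431; 7 higher and 1 lower of 23) were below that of all genes. The lists overlap, and the share called follows depth as well: 56 of the 82 genes with the most fragments were higher in SPOC, and 13 of the 83 with the fewest.

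By level and length, the 99 genes higher in SPOC had a median day 0 level of 3.09 CPM per kb and a median length of 35856 bases, and the 9 genes lower in SPOC had 0.743 CPM per kb and 167399 bases. Over all X-linked genes the medians were 1.86 CPM per kb and 25398 bases. Level and length also set depth, which calls follow. Median fragments in the thinnest of the 4 libraries were 318 for the 99 genes and 207 for the 9. They were 47.5 for genes not called and 97.5 over all. The part of depth in these medians was not tested. In the lowest, middle and highest tercile of genes by day 0 level, the median ratio difference was 0.0785, 0.0733 and 0.111, and 5, 3 and 1 genes were lower in SPOC. By the WT ratio on day 3, a measure of how fast a gene is silenced, 8 of the 9 genes lower in SPOC were in the tercile of genes with the lowest ratio. In that tercile the median ratio was 0.171 in SPOC and 0.121 in PCGF35_dTAG, and in the tercile with the highest it was 0.458 and 0.331.

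Total RNA levels were compared between the same arms over 14538 genes. Of these 442 (3.04%) were higher and 711 (4.89%) lower in SPOC by edgeR, but the counts fell to 6 and 2 without clone H1 and to 6 and 10 without PCGF35_dTAG replicate 2. Relative to each arm's reference 1 gene was higher (0.00688%) and 0 lower (0%), with 339 and 414 at an unadjusted p under 0.05 and 10 and 5 called by DESeq2; that gene was Spen, with an interaction of 1.82 ± 0.17 on the log2 scale (edgeR adjusted p = 0.025, and 0.059 with the replicate block of the degron line). Among the 515 X-linked genes, 53 were higher and 30 lower in SPOC, with a median log2 fold change of 0.13, against -0.03 over all genes. Xist was at 5386 and 4718 CPM in SPOC and 7815 and 11592 CPM in PCGF35_dTAG, with 7362 to 13521 CPM in the references. The difference between the arms was -0.94 ± 0.23 on the log2 scale (edgeR adjusted p = 0.038) and it lost its call when any of the 4 libraries was left out.

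Genes of the silencing machinery were given by list, beside 3.04% higher and 4.89% lower over all genes tested. These calls need all libraries: without clone H1 or without PCGF35_dTAG replicate 2, each left out in turn, 1 gene of the SPEN and NCoR-HDAC3 list was still called and 0 of the PRC1, PRC2, neural precursor, mesoderm and endoderm, and fibroblast lists. Of 16 measured genes of SPEN and the NCoR-HDAC3 complexes 3 were higher in SPOC and 0 lower, of 29 PRC1 genes 2 were higher and 4 lower, and of 11 PRC2 genes 2 were higher and 0 lower. The first 3 were Spen, the mutated gene itself, the X-linked Tbl1x, and Rbm15. For Tbl1x Dom output was 88.3 and 84.2 CPM in SPOC and 18.6 and 16.6 CPM in PCGF35_dTAG. Its Cast output was 122 and 113 against 126 and 114 CPM. Rbbp7, 1 of the 2 PRC2 genes, is also on the X. Mga, a DNA-binding subunit of a variant PRC1, was at 995 and 1109 CPM in SPOC and 563 and 486 CPM in PCGF35_dTAG. Of 15 neural precursor markers that could be tested 3 were higher and 0 lower in SPOC, with a median log2 fold of -0.08, and of 11 markers of mesoderm and endoderm 0 were higher and 3 lower. Pax6, a neural transcription factor, was at 6.84 and 4.74 CPM in SPOC and 0.810 and 0.820 CPM in PCGF35_dTAG. Other members of the list lay below PCGF35_dTAG without overlap but did not pass: the log2 fold was -1.89 for Meis1, -1.40 for Nes and -1.29 for Vim, with edgeR adjusted p of 0.095, 0.17 and 0.080. Gata6, a transcription factor of primitive endoderm, was at 1.51 and 0.743 CPM in SPOC and 20.7 and 60.1 CPM in PCGF35_dTAG, with 12.2 and 46.9 CPM in the untreated degron line. Col4a1, a basement membrane collagen, was at 142 and 104 CPM against 960 and 3470 CPM, with 716 and 2667 CPM in the untreated line. The untreated degron line thus held levels of Gata6 and Col4a1 like those of its treated counterpart, and their interactions did not pass the test (edgeR adjusted p of 0.96 for both).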

How the data were processed

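ChrRNA-seq libraries were processed by the authors: reads on ribosomal RNA were removed with Bowtie2 2.3.2, the rest was aligned with STAR 2.4.2a to an mm10 genome with strain-specific bases masked, split by allele with SNPsplit, and counted over RefSeq transcripts by strand with featureCounts 1.5.2. The deposited counts are raw fragments per gene for the whole library and for each allele (22556 genes, 908 on the X). The deposited allelic ratio is a fraction, given by the authors for 246 X-linked genes. They required at least 10 allelic fragments in over 80% of WT samples and a ratio between 0.1 and 0.9 in uninduced mESCs. Ratios recomputed from the deposited counts were equal to the deposited ratio in all 58 libraries. Masking and the choice of informative positions can shift a gene's ratio.

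Groups came from the labels. Allele counts were tested with edgeR 4.0.16 (quasi-likelihood, R 4.3.3), in 1 fit over 58 libraries and 246 genes with a term for each library and a Dom term for each group; standard errors belong to log2 odds. Contrasts were SPOC against PCGF35_dTAG on day 6 and day 3, the same relative to WT and untreated cells and relative to day 0, and PCGF35_SPOC_ctrl against DelPID. Total counts were tested with edgeR over the 8 day 6 libraries after a filter on low counts. Median ratios were compared by an exact permutation test within days. The scripts were tested on simulated data. Limma 3.58.1, DESeq2 1.42.0, other filters, gene sets, centering and leaving out each library were the alternatives.

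The genes compared and the gene lists were chosen with earlier results of these data known. Genes named per direction were up to 12 by difference of the mean ratio (adjusted p under 0.05, groups that do not overlap, at least 40 fragments in each of the 4 libraries), 5 relative to the references (at least 20 fragments in each of 8 libraries), 8 by fold change of total RNA (at least 5 CPM in the higher group), and up to 6 members of a list; 3 genes that met these rules or a call are not reported here by name, although counts include them. Replicate libraries differed by more than sampling noise, so none was counted as a duplicate.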

Additional observations from a re-analysis of the deposited data

Results flagged for a closer look

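The effects of SPOC mutation and of PCGF3/5 depletion, each against its own day 6 reference, differed by the interaction test for 20 X-linked genes, of which 18 are given here, and, in total RNA, for Spen. The values are log2 odds interactions, positive where SPOC mutation had the larger effect, from edgeR with an adjusted p under 0.05 over all X-linked genes with a ratio.

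Slc7a3 was at 2.41, Pdzd4 at 2.29 and Pls3, an actin-bundling protein, at 2.17. Rps4x was at 1.67, Tbl1x at 1.54 and Pola1 at 1.52, and these 3 and Pdzd4 were the 4 of these 18 genes that kept their call under all alternatives. Gpc3, a glypican, was at 1.49 and differed in level: its ratio was 0.147 and 0.155 in SPOC, 0.0841 and 0.0946 in PCGF35_dTAG and 0.0138 to 0.0226 in the references, so it was largely silenced with either loss. Mcf2 was at 1.37, Snx12 at 1.30, Igbp1 at 1.27, Xiap at 1.26, Nono at 1.25 and Kif4 at 1.22. Hcfc1 was at 1.10, Firre, a long noncoding RNA gene, at 0.94, Ogt at 0.80 and Usp9x at 0.76. In the other direction stood Eda at -1.39.

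Spen RNA had an interaction of 1.82 on the log2 scale. On day 0, before Xist induction, it was already at 243 to 265 CPM in SPOC and 95.5 to 116 CPM in PCGF35_dTAG. Its day 6 levels in SPOC, 509 and 511 CPM, were above all 6 other libraries of that day, and its adjusted p was from 2e-13 to 1.00 over the alternatives, all of which kept the direction.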

How the results depend on the processing

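Depth and the number of libraries limited the calls. Of 523 values of 44 named genes in the day 6 comparison under the alternatives, 453 kept direction and call, 69 lost the call and 1 reversed: Eda2r was -0.16 (log2 odds) after centering. Of the genes, 18 of 44 kept the call in all. Of the 12 named genes higher in SPOC, Slc6a8 and Gm14634 lost their call, both on centering (adjusted p of 0.058 and 0.10 in edgeR). Relative to the references 250 of 306 values kept the call and none reversed.

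Counts moved as follows, higher then lower in SPOC. For day 6, DESeq2 gave 63 and 3, limma on ratios 4 lower, and centering 26 and 37. Relative to the references, limma on ratios gave 30 and 1, limma on log2 odds 41 and 5, DESeq2 0 lower and centering 7 and 5. Relative to day 0, limma on ratios gave 1 lower. For PCGF35_SPOC_ctrl against DelPID, limma on ratios gave 73 higher. For total RNA, a fit of all 58 libraries gave 108 and 245 and a fit without the filter 714 higher; relative to the references these gave 0 and, without the filter, 4 and 3, and DESeq2 gave 10 and 5. The median ratio difference was 0.0981 over NPC days 3 and 6 (exact permutation p = 0.0556) and 0.108 on day 6 (exact permutation p = 0.333), and with whole clones and replicates exchanged, added after seeing the data, 0.0766 (exact permutation p = 0.1). The cause of these shifts was not tested, except that centering removes the overall difference.

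Leaving out each library in turn, where the lone library of an arm is assumed to vary like those of the other groups, gave 71 to 83 and 2 to 7 genes for day 6, 13 to 21 and 0 to 3 relative to the references, 53 to 72 and 2 to 6 relative to day 0, 51 to 77 and 2 to 3 on day 3, and 32 to 56 and 1 to 29 for PCGF35_SPOC_ctrl against DelPID. Total RNA gave 6 to 196 and 2 to 240, and relative to the references 0 to 1 and 0 to 2. The median ratio difference ranged from 0.0721 to 0.0811.

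With a replicate block (untreated and treated numbers of the degron line, and SPOC clones over days) 18 and 2 genes passed relative to the references, 69 and 4 relative to day 0, and 0 for total RNA, Spen losing its call. Allelic deviations of same-numbered libraries correlated at -0.097 (untreated and treated, day 6), 0.093 (treated, days 0 and 6) and 0.031 (SPOC clones). Those of total RNA in untreated and treated cells correlated at 0.41. Each value rests on a single difference between libraries per group, so it cannot settle whether the numbers are paired. WT and SPOC cells were also differentiated side by side, but the labels do not say which WT library goes with which clone, so no block holds that pairing.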
